A study of Mus musculus with 162 samples.

Results

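Perigonadal white adipose tissue (pgWAT), the fat pad that lies along the epididymis in male mice, was compared between mice late in a fast and mice at or near the fed state. 12 of the 162 mRNA-seq libraries of the series were chosen by their titles: organ pgWAT, with 18 h or 22 h of fasting (late arm, 6 libraries) or with 0 h or 2 h (early arm, 6 libraries). The mice were adult wild-type C57BL/6J males, 3 per fasting duration, and each mouse gave all organs. Food was taken away at different clock times and all mice were killed within the same early hours of the dark phase; the 0 h mice had eaten freely. Total counts per library ran from 9305049 to 19829510 in the early arm and from 5784709 to 9034939 in the late arm. A level below is a CPM after scaling with TMM factors (normalized CPM), and an arm's 3 values are its lowest, median and highest library. A log2 fold change (log2FC) is late over early.

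White adipocytes store triglyceride when insulin is high and release fatty acids and glycerol when it falls. In the fed state insulin drives glucose uptake and the lipogenic enzymes that turn citrate into fatty acids, through the transcription factors SREBP1c and ChREBP. In fasting, catecholamines and falling insulin activate lipases at the lipid droplet, and the adipocyte lowers its output of the satiety hormone leptin. The pad also holds fibroblasts, endothelial cells, macrophages and mesothelium, and in males it is dissected away from the epididymis.

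The adipocyte markers were present in all 12 libraries, with 1 library far lower. Leptin (Lep) lay at 1544, 1735 and 2393 normalized CPM in the 3 libraries at 0 h and at 1859, 640.3 and 680.1 at 2 h. It lay at 1436, 772 and 489 at 18 h and at 935, 87.0 and 1569 at 22 h. The arms of Lep overlapped, and 22 h replicate 2 was the lowest library. Lep had a log2FC of -0.75 (SE 0.55, edgeR adjusted p = 0.511; 0.399 to 0.979 over its 19 alternatives), so no difference was detected. Without 22 h replicate 2 and 18 h replicate 3 its late median was 1186 normalized CPM against 1639.6 in the early arm.

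Adiponectin (Adipoq), a hormone made by adipocytes, lay at 3746, 4644 and 4299.9 normalized CPM at 0 h and at 6883, 3612 and 3738 at 2 h. At 18 h its levels were 6764, 6142 and 5029, and at 22 h they were 10072, 651 and 7711. 22 h replicate 2 again lay below every other library, and the arms overlapped. Adipoq had a log2FC of 0.43 (SE 0.46, edgeR adjusted p = 0.651; 0.00742 to 0.911 over its 19 alternatives). Its log2FC was 0.20 without 22 h replicate 1 and 0.67 without 22 h replicate 2. The summed level of 10 adipocyte markers, of which Car3 was the most abundant, was 8969 normalized CPM in 22 h replicate 2 and 51571 to 120991 in the other 11 libraries.

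A pair of late libraries carried large amounts of RNA of other tissue. The summed level of 15 epididymis markers, with the secreted protein gene Crisp1 the most abundant, was 49679 normalized CPM in 18 h replicate 3 and 24789.8 in 22 h replicate 2. It was 792 in 22 h replicate 3, 90.4 in 22 h replicate 1, 8.95 and 6.04 in 18 h replicates 1 and 2, and 2625 in 2 h replicate 2. The other 5 early libraries held 1.23 to 30.8. So the epididymis signal was highest in the late arm without being limited to it. Gpx5, a secreted peroxidase of the epididymis, was at 0 in all 6 early libraries and at 0.979, 38.8 and 17069 in the late arm, and the arms of Lcn8, Gpx5 and Spag11b did not overlap. Of 12 epididymis genes tested, 0 passed at adjusted p under 0.05 in limma with library weights or in edgeR; DESeq2 passed 8, but some members pass the count filter through late libraries alone. How far the dissection, rather than the fast, set these levels was not tested.

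Smooth muscle and liver genes set further libraries apart. The sum of 8 smooth muscle markers, led by the myosin gene Myh11, was 18041 normalized CPM in 22 h replicate 2, 5597 in 2 h replicate 2, and 268 to 999 in the other 10 libraries. The sum of 10 liver markers, led by albumin (Alb), was 5144 in 18 h replicate 2, 374 in 22 h replicate 1 and 103.9 in 2 h replicate 1, against 6.99 to 54.5 in the others. Sums of the other tissue lists stayed smaller. Testis germ cell markers (led by Smcp) reached 159.1 in 18 h replicate 3, skeletal muscle markers (Acta1) 676 in 22 h replicate 2, and stomach markers (Atp4a) 103.1 in 18 h replicate 2. Keratinocyte markers (Dsp) reached 131.2, neural markers (Mbp) 65.6, pancreas markers (Cela1) 41.98, and seminal vesicle and prostate markers (Svs4) 31.4. Results below are given with all 12 libraries and, where they rest on them, without 18 h replicate 3 and 22 h replicate 2.

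**Figure D1:**
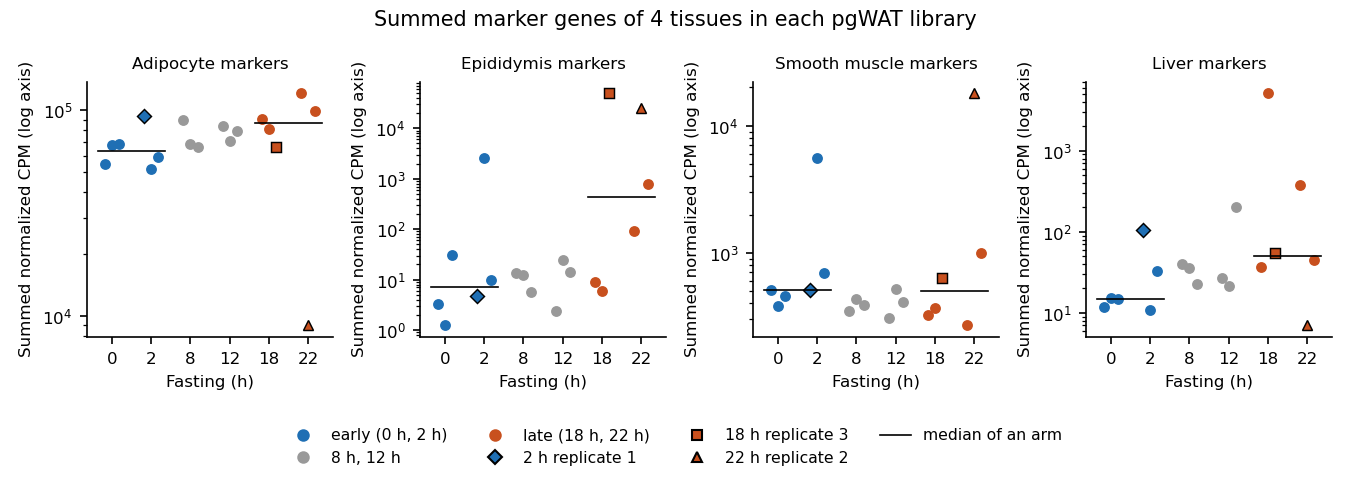
Summed normalized CPM of 4 marker lists in each of the 18 pgWAT libraries, on a log axis, by hours of fasting; horizontal lines are medians of the early and late arms. The square (18 h replicate 3) and the triangle (22 h replicate 2) hold the highest epididymis sums, 49679 and 24789.8.

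Sequencing depth and lane also moved with the arms. Every late library was sequenced in lane 6, and 5 of the 6 early libraries in lane 5, so lane and arm cannot be told apart within the 12 libraries. 2 h replicate 1 came from lane 7. Mean total counts were lower in the late arm by a difference of -6281430 counts (exact two-sided permutation test over 924 splits, p = 0.00216, the smallest this test can give; adjusted p = 0.00433 over 4 measures), and the arms did not overlap. The slope of log2 level on log2 gene length was 0.125, 0.415 and 0.471 in the early arm and 0.134, 0.219 and 0.398 in the late arm, a difference of means of -0.117 (adjusted exact permutation p = 0.139), and the arms overlapped. The lowest early slope was that of 2 h replicate 1; without that library the difference was -0.167 (adjusted exact permutation p = 0.0289, and 0.139 with it). The share of counts on the 10 most abundant genes was 12.2%, 14.01% and 14.6% in the early arm and 12.1%, 15.7% and 18.4% in the late arm, a difference of means of 1.77 percentage points (adjusted exact permutation p = 0.139). Without 22 h replicate 2 it was 2.46 (adjusted exact permutation p = 0.0144).

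By their medians, short genes were higher and long genes lower in the late arm. In 5 groups of genes of equal size by length, the median log2FC was 0.26, 0.14, 0.04, -0.03 and -0.11 from the shortest to the longest (median lengths 1148 to 9414 bases). Across genes, which are not independent replicates, Spearman's correlation of log2FC with length was -0.293. The part of length, lane or RNA quality in any list below was not tested beyond fits that take out each library's trend with length and GC content. A lane term was fitted in edgeR over all 18 libraries, for the count of calls and for single genes only.

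**Figure D2:**
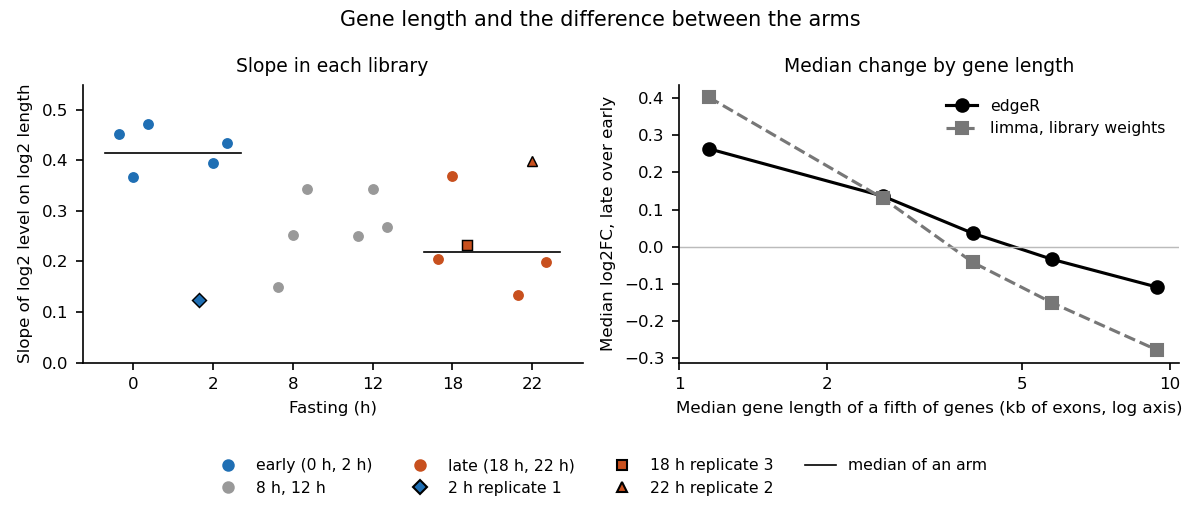
Left, slope of log2 level on log2 gene length in each pgWAT library by hours of fasting, with lines at the medians of the early and late arms; right, median log2FC (late over early) of 5 equal groups of genes against their median length in kb, on a log axis, in edgeR and in limma with library weights. The edgeR median falls from 0.26 for the shortest group to -0.11 for the longest.

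Across all genes, the tools gave different counts. edgeR's quasi-likelihood test, with equal weight for every library and Benjamini-Hochberg adjustment, called 0 of 16412 genes (0%) at adjusted p under 0.05 and absolute log2FC over 1; 2529 genes had an unadjusted p under 0.05 and the smallest adjusted p was 0.207. DESeq2 called 182 genes (91 higher, 91 lower), and limma-voom with a quality weight for each library called 493 (310 of them lower). The weight of 22 h replicate 2 was 0.179, that of 2 h replicate 1 0.263 and that of 18 h replicate 3 0.404, and the others ran from 0.685 to 2.75. Without 2 h replicate 1, edgeR called 31 genes as higher and 78 as lower; without any other 1 library it called 0. Without 18 h replicate 3 and 22 h replicate 2 together, edgeR called 0, DESeq2 197 (46 of them higher) and limma 552 (202 higher, 350 lower). With each library's trend with length and GC content taken out, limma called 179 (60 of them higher).

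Where genes are counted by list, the limma fit with library weights is used at adjusted p under 0.05, which 1512 genes passed with lower values in the late arm (9.21%) and 1912 with higher values (11.7%). Without 18 h replicate 3 and 22 h replicate 2 this fit passed 1640 lower (9.99%) and 2147 higher (13.1%) genes, and with the length and GC trends taken out 432 lower (2.63%) and 954 higher (5.81%). The arms did not overlap for 95 genes that were lower in the late arm (0.579%) and for 78 that were higher (0.475%). The median log2FC of all genes tested was 0.06 in edgeR. In these bulk libraries, fewer cells of a type and less RNA per cell cannot be told apart.

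Most fatty acid synthesis genes had a log2FC below 0. Of 21 list members tested, 17 lay below 0 and 4 above, 7 were lower and 0 higher in limma with library weights (6 lower in DESeq2, 0 in edgeR), and the arms of 3 (Fasn, Acly, Pnpla3) did not overlap; their median log2FC was -0.69 against 0.06 over all genes. Without 18 h replicate 3 and 22 h replicate 2 the median was -0.58, with 7 lower and 1 higher in limma. With the length and GC trends taken out, 3 stayed past the threshold in limma with library weights, each lower: Pnpla3, Mlxipl and Scd2. The limma log2FC of Fasn went from -1.35 to -0.78 with that step and that of Acly from -1.31 to -1.07, and neither passed. Acly makes cytosolic acetyl-CoA from citrate, Fasn joins it into palmitate, and Pnpla3 is a lipid droplet acyltransferase and hydrolase that is induced by feeding.

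Fasn lay at 1678, 2248 and 7713 in the early arm and 221, 708 and 1627 in the late arm (normalized CPM). Its arms did not overlap, and 0 h replicate 3 was the highest early library. Fasn had a log2FC of -1.96 (SE 0.50, edgeR adjusted p = 0.211; 0.00362 to 0.781 over its 19 alternatives), and its late median without 18 h replicate 3 and 22 h replicate 2 was 927. Acly lay at 269, 388 and 1914 in the early arm and 127, 168.7 and 258 in the late arm. Every late library was below every early one, again with 0 h replicate 3 highest. Acly had a log2FC of -1.79 (SE 0.48, edgeR adjusted p = 0.212; 0.00912 to 0.781 over its 19 alternatives). Without 0 h replicate 3 its log2FC was -1.04. Pnpla3 lay at 545, 977 and 2029 in the early arm and 41.1, 255 and 458 in the late arm, with no overlap. Pnpla3 had a log2FC of -2.14 (SE 0.54, edgeR adjusted p = 0.207; 0.000170 to 0.781 over its 19 alternatives), with 22 h replicate 2 as its lowest library and a late median of 320.0 without that library and 18 h replicate 3.

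The transcription factors that drive these enzymes had overlapping arms. Mlxipl, which encodes ChREBP, lay at 51.2, 133.6 and 259 in the early arm and 8.58, 41.3 and 75.5 in the late arm, and Srebf1, which encodes SREBP1, at 266, 427 and 978 in the early arm and 122.5, 252 and 347 in the late arm. Mlxipl had a log2FC of -1.71 (SE 0.47, edgeR adjusted p = 0.219; 0.00763 to 0.781 over its 19 alternatives). Srebf1 had a log2FC of -1.04 (SE 0.32, edgeR adjusted p = 0.224; 0.0115 to 0.792 over its 19 alternatives). Pgd, of the pentose phosphate pathway that supplies NADPH, lay at 294, 391 and 605 in the early arm and 116.6, 222 and 329 in the late arm, and the desaturase Scd2 at 131.6, 235.4 and 349 in the early arm and 35.9, 92.4 and 565 in the late arm. Both overlapped between the arms. Scd2 was at 565 in 22 h replicate 2 and 282 in 18 h replicate 3, and at or under 106 in the other 4 late libraries; that pair has a low weight in limma. The abundant stearoyl-CoA desaturase Scd1 lay at 18145, 24237 and 24839 in the early arm and 1950.1, 20865 and 22102 in the late arm, overlapping, with 22 h replicate 2 lowest and 18 h replicate 3 next at 11551.

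The upstream 250 bases of the 3 fatty acid synthesis genes whose arms did not overlap are shown because of that separation. They come from RefSeq's annotation of GRCm38.p6 and run 5′ to 3′ on the gene's strand up to its start. 4 exact words were searched on both strands: the E-box CACGTG, the FoxO word GTAAACA, the CRE TGACGTCA and the D-box TTATGTAA. Over the 250 bases of all 32851 promoters of the table, 6.02% held CACGTG, 3.17% GTAAACA, 1.55% TGACGTCA and 0.819% TTATGTAA. Capitals mark a word found. Pnpla3 held TGACGTCA once, starting 46 bases before the start, and Fasn and Acly held 0 of the 4 words in this window. The windows are chr11:120824548-120824797 (minus strand) for Fasn, chr11:100528001-100528250 (minus strand) for Acly and chr15:84167566-84167815 (plus strand) for Pnpla3.
Fasn: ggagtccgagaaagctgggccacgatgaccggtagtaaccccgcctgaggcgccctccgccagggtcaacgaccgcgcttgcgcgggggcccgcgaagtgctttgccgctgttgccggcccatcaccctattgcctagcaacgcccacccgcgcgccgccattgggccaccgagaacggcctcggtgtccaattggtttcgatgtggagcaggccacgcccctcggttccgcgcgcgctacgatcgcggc
Acly: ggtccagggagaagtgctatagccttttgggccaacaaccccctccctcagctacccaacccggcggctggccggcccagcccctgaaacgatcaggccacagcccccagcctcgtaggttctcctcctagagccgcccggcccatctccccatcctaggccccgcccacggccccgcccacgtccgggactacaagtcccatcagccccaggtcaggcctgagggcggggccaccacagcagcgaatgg
Pnpla3: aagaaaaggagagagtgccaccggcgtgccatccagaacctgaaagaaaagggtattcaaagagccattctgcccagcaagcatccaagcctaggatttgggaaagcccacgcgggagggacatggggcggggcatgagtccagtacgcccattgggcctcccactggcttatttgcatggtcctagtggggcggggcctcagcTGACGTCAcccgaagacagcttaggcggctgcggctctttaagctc

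**Figure D3:**
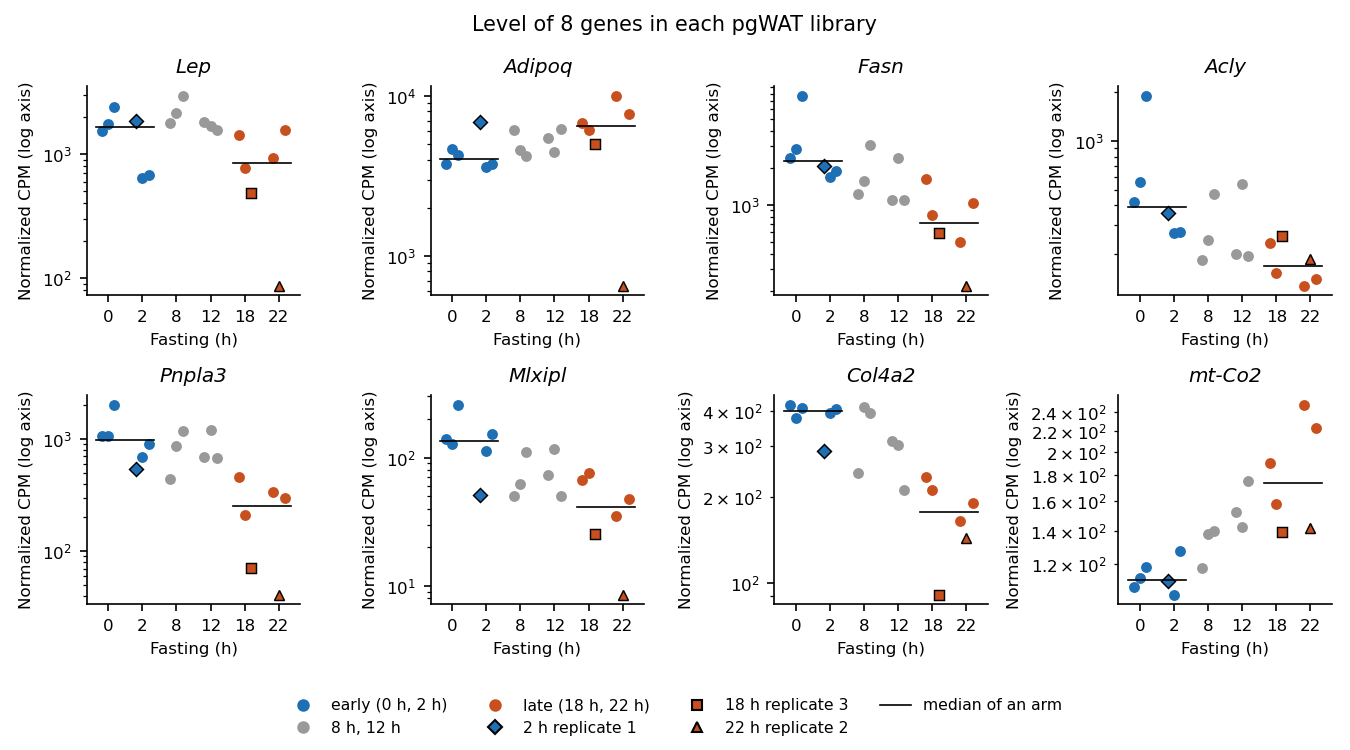
Normalized CPM of 8 genes in each of the 18 pgWAT libraries, on a log axis, by hours of fasting; horizontal lines are medians of the early and late arms, and 3 libraries that stand apart have their own marks. For Fasn, Acly, Pnpla3 and Col4a2 every late library lies below every early one, and for mt-Co2 above.

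Genes that build triglyceride and take up lipid gave no clear shift. Of 15 triglyceride synthesis genes tested, 0 passed in limma with library weights (0 in edgeR, 0 in DESeq2), and their median log2FC was -0.32, or -0.07 without 18 h replicate 3 and 22 h replicate 2, where 1 was higher and 1 lower in limma. Gpd1, which makes glycerol 3-phosphate, lay at 585, 981 and 5890.3 in the early arm and 90.8, 667 and 879.7 in the late arm, overlapping, and had a log2FC of -1.58 (SE 0.63, edgeR adjusted p = 0.282; 0.0976 to 0.823 over its 19 alternatives). Without 0 h replicate 3 the log2FC of Gpd1 was -0.68. Dgat2, which adds the last acyl chain, lay at 1476, 2320.1 and 3616 in the early arm and 155.3, 1283 and 2720.4 in the late arm, and Pck1, which feeds glyceroneogenesis, at 582, 1127 and 2374 in the early arm and 209.8, 1902 and 2980.5 in the late arm. Both overlapped widely. Of 12 lipid uptake genes, 1 was lower in limma, the receptor Lrp1, and 0 were higher, with a list median log2FC of -0.13. Without 18 h replicate 3 and 22 h replicate 2, 2 of the 12 were higher and 1 lower in limma, and the median was 0.06. With the length and GC trends taken out, 0 of the 12 passed in limma. Lipoprotein lipase (Lpl) lay at 7904, 11523 and 15483 in the early arm and 1576, 10769.5 and 15173 in the late arm, and the fatty acid transporter Cd36 at 3392, 4567 and 5693 in the early arm and 519.6, 5638 and 7423 in the late arm. Angptl8, a lipase inhibitor induced by feeding, lay at 5.33, 39.4 and 413 in the early arm and 1.17, 6.39 and 16.6 in the late arm, and its lowest early libraries reached into the late range.

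Lipolysis genes were mixed. Of 20 tested, 3 were higher (Cidea and Fabp4 among them) and 1 lower (Mgll) in limma with library weights, the arms of Mgll alone did not overlap, and the median log2FC was 0.00. Mgll, the monoglyceride lipase that acts last in lipolysis, lay at 767, 932 and 1339 in the early arm and 381, 642 and 739.9 in the late arm and had a log2FC of -0.71 (SE 0.22, edgeR adjusted p = 0.224; 0.0218 to 0.809 over its 19 alternatives). The first enzyme, the triglyceride lipase Pnpla2, lay at 1452, 2124 and 2522 in the early arm and 318, 2724 and 3784 in the late arm. Its arms overlapped through 18 h replicate 3 and 22 h replicate 2; the other 4 late libraries were all above the early arm. The fatty acid chaperone gene Fabp4 lay at 9276, 11773 and 26576 in the early arm and 1969, 19190.5 and 28770 in the late arm, overlapping. With the length and GC trends taken out, 0 of the 20 passed in limma.

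Fatty acid oxidation and glucose use gave few genes past the threshold with all 12 libraries. Of 21 fatty acid oxidation and PPAR target genes, 2 were higher (Acadl, Hadhb) and 1 lower (Ppard) in limma with library weights, with a median log2FC of -0.02; without 18 h replicate 3 and 22 h replicate 2, 5 were higher and 1 lower. Hadhb, of the mitochondrial trifunctional protein, lay at 43.9, 51.4 and 117.3 in the early arm and 31.2, 87.0 and 103.9 in the late arm, and Acadl, the long-chain dehydrogenase, at 198, 259 and 358 in the early arm and 95.2, 363 and 404 in the late arm. Of 20 glucose uptake and glycolysis genes, 1 was higher (Pgk1) and 0 lower, with a median of -0.09. Without 18 h replicate 3 and 22 h replicate 2, 4 of these 20 were higher and 1 lower, and with the length and GC trends taken out 4 were higher and 0 lower. Of 9 brown and beige adipocyte markers tested, 2 were higher (Cidea, Cox8b); 1 was without 18 h replicate 3 and 22 h replicate 2, and 0 with the length and GC trends taken out (0 in edgeR or DESeq2 without that step). The list's summed level was 70.0, 84.1 and 102.3 in the early arm and 60.4, 83.3 and 213 in the late arm, with 22 h replicate 2 highest and 18 h replicate 3 next. The arms of every member of these lists overlapped.

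Adipokines were mixed. Of 15 tested, 2 were higher (Adipoq, Rarres2) and 1 lower (Apln) in limma with library weights, with a median log2FC of 0.06; without 18 h replicate 3 and 22 h replicate 2, 8 were higher and 1 lower, and with the length and GC trends taken out 0 were higher and 2 lower (1 lower in DESeq2 without that step, 0 in edgeR). Apelin (Apln), a peptide hormone, lay at 7.98, 16.2 and 36.02 in the early arm and 0.847, 3.61 and 8.40 in the late arm. The arms overlapped by a single late library. Apln had a log2FC of -2.10 (SE 0.48, edgeR adjusted p = 0.207; 0.00203 to 0.781 over its 19 alternatives); without 2 h replicate 1 its edgeR adjusted p was 0.0491. Adipsin (Cfd) lay at 9578, 13332 and 16736 in the early arm and 2177, 16609 and 30038 in the late arm, and resistin (Retn) at 1672, 2035 and 5036 in the early arm and 336, 2562 and 4065 in the late arm. Both overlapped.

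Among insulin signalling genes and FoxO targets, 28 were tested: 1 was higher (Txnip) and 2 lower (Bcl6, Igfbp3) in limma with library weights, with a median log2FC of -0.15. Txnip, which restrains glucose uptake, lay at 632, 1016 and 1336 in the early arm and 884, 1400.2 and 1848 in the late arm. Bcl6, a transcriptional repressor, lay at 20.0001, 100.2 and 195 in the early arm and 12.6, 23.3 and 34.8 in the late arm. The arms of both overlapped, for Bcl6 through 2 h replicates 1 and 2, at 20.0001 and 28.01. Bcl6 had a log2FC of -2.03 (SE 0.50, edgeR adjusted p = 0.207; 0.00362 to 0.781 over its 19 alternatives); without 2 h replicate 1 its edgeR adjusted p was 0.0461. Of 10 growth hormone axis genes, 3 were lower (Stat5b, Bcl6, Igfbp3) and 0 higher. Stat5b, which carries the growth hormone signal to the nucleus, lay at 40.99, 54.4 and 61.3 in the early arm and 29.6, 35.5 and 44.6 in the late arm, overlapping, and had a log2FC of -0.53 (SE 0.14, edgeR adjusted p = 0.212; 0.0147 to 0.781 over its 19 alternatives); without 2 h replicate 1 its edgeR adjusted p was 0.0472.

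Of 18 glucocorticoid response genes, 1 was higher (Sult1a1) and 3 lower (Fkbp5, Per1, Zbtb16) in limma with library weights, with a median log2FC of 0.08. Without 18 h replicate 3 and 22 h replicate 2, 2 of the 18 were higher and 1 lower. Fkbp5, a chaperone of the glucocorticoid receptor, lay at 110.5, 174 and 307 in the early arm and 71.3, 130.95 and 209 in the late arm, and Zbtb16, a transcription factor induced by glucocorticoids, at 14.9, 41.7 and 89.2 in the early arm and 6.07, 13.8 and 33.6 in the late arm. Of 19 clock genes, 2 were lower (Per1, Per2) and 0 higher, with a median of -0.29. The repressor gene Per2 lay at 31.0, 68.2 and 99.0 in the early arm and 24.7, 36.7 and 69.5 in the late arm, and the clock output factor Dbp at 35.001, 109.5 and 192.8 in the early arm and 108.6, 158 and 327 in the late arm. All of these arms overlapped. With length and GC trends taken out, 0 glucocorticoid or clock genes passed in limma.

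Cholesterol synthesis genes and adipocyte transcription factors had list medians below 0. Of 19 cholesterol synthesis genes, 15 had a log2FC below 0, 2 were lower (Srebf2, Lss) and 1 higher (Fdft1) in limma with library weights, with a median log2FC of -0.56. Once the length and GC trends were taken out, 0 were lower and 1 higher in limma (1 lower in DESeq2 without that step, 0 in edgeR), while the limma median went from -0.50 to -0.53. Without 18 h replicate 3 and 22 h replicate 2, 4 were lower and 1 higher, with an edgeR median of -0.70. The synthase Hmgcs1 lay at 120.6, 239 and 448 in the early arm and 98.5, 129.6 and 184 in the late arm, overlapping. Of 17 adipocyte transcription factors, 4 were lower (Rxra, Srebf1, Stat5b, Zfp423) and 0 higher, with a median of -0.25, or 0.02 without 18 h replicate 3 and 22 h replicate 2. With the trends taken out, 0 of the 17 passed in limma (4 in DESeq2 without that step, 0 in edgeR). Zfp423, a factor of preadipocytes, lay at 22.7, 25.1 and 30.4 in the early arm and 5.19, 15.4 and 19.5 in the late arm, with arms that did not overlap. Zfp423 had a log2FC of -0.90 (SE 0.27, edgeR adjusted p = 0.219; 0.00401 to 0.781 over its 19 alternatives). Pparg, the master regulator of adipocyte genes, lay at 141.1, 345 and 414 in the early arm and 25.7, 277 and 521 in the late arm, overlapping.

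Collagens and other matrix genes were the list with most genes lower. Of 22 tested, 20 had a log2FC below 0, 12 were lower and 0 higher in limma with library weights, and the arms of 5 did not overlap; the median log2FC was -0.56, or -0.42 without 18 h replicate 3 and 22 h replicate 2, where 12 again were lower. These are long genes, with a median length of 7781 bases against 3969 over all genes. With the length and GC trends taken out together, the median was -0.23 in edgeR and 1 gene, Col4a2, stayed past the threshold in limma.

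The basement membrane chain Col4a2 lay at 289.8, 399 and 420.3 in the early arm and 90.8, 177 and 234.1 in the late arm, and its partner Col4a1 at 449, 669.6 and 744 in the early arm and 182.96, 383 and 437 in the late arm. In both genes every late library was below every early one. Their annotated starts lie 20 bases apart on opposite strands of chromosome 8. Col4a2 had a log2FC of -1.15 (SE 0.21, edgeR adjusted p = 0.207; 8.6e-08 to 0.781 over its 19 alternatives), and Col4a1 a log2FC of -0.87 (SE 0.22, edgeR adjusted p = 0.207; 0.000945 to 0.784 over its 19 alternatives). Col5a1, of fibrillar collagen V, lay at 85.7, 128 and 131.3 in the early arm and 33.4, 61.7 and 72.6 in the late arm, Col6a2 at 229.8, 263 and 309 in the early arm and 77.2, 145.6 and 173 in the late arm and Col6a3 at 110.2, 143.5 and 164.7 in the early arm and 52.2, 94.7 and 104.2 in the late arm, the last 2 being chains of the microfibrillar collagen VI. None of these arms overlapped. Col5a1 had a log2FC of -1.09 (SE 0.21, edgeR adjusted p = 0.207; 8.0e-06 to 0.781 over its 19 alternatives), Col6a2 a log2FC of -0.93 (SE 0.19, edgeR adjusted p = 0.207; 1.5e-06 to 0.781 over its 19 alternatives) and Col6a3 a log2FC of -0.68 (SE 0.17, edgeR adjusted p = 0.207; 0.00172 to 0.902 over its 19 alternatives). Without 2 h replicate 1 the edgeR adjusted p was 0.0461 for Col4a2, 0.0471 for Col4a1, 0.0461 for Col5a1, 0.0461 for Col6a2 and 0.0555 for Col6a3.

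All 11 endothelial markers tested had a log2FC below 0, and no member's arms were apart. In limma with library weights 5 were lower (Pecam1, Cdh5, Kdr, Flt1, Tie1), against 1 in DESeq2 and 0 in edgeR, and the median was -0.81, or -0.49 without 18 h replicate 3 and 22 h replicate 2. Their summed level, led by Pecam1, was 632, 783 and 1171 in the early arm and 201, 522 and 816 in the late arm. Tie1, a receptor kinase of endothelial cells, lay at 36.5, 64.02 and 87.7 in the early arm and 14.1, 18.1 and 53.3 in the late arm, and Cdh5, their cadherin, at 47.97, 112.2 and 144.7 in the early arm and 14.1, 38.5 and 90.5 in the late arm. The arms of both overlapped, for Tie1 through 18 h replicate 2. Tie1 had a log2FC of -1.39 (SE 0.32, edgeR adjusted p = 0.207; 0.00440 to 0.781 over its 19 alternatives), and Cdh5 a log2FC of -1.25 (SE 0.39, edgeR adjusted p = 0.224; 0.0105 to 0.781 over its 19 alternatives). Without 2 h replicate 1 the edgeR adjusted p of Tie1 was 0.0467. With the length and GC trends taken out, 2 of the 11 stayed past the threshold in limma, Tie1 and Cdh5.

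Markers of other cell types of the pad follow. Of 15 fibroblast and preadipocyte markers, 2 were lower (Pdgfrb, Icam1) and 0 higher in limma with library weights (2 lower and 3 higher without 18 h replicate 3 and 22 h replicate 2), and their summed level was 13036, 14746 and 16579.9 in the early arm and 5162, 15775 and 18179.6 in the late arm. Of 20 macrophage markers, 2 were lower (Itgam, Itgax), with a median log2FC of -0.20; without 18 h replicate 3 and 22 h replicate 2, 4 were higher and 1 lower, with a median of 0.15. The list shares its most abundant gene, Lpl, with adipocytes. Of 11 MHC class II and dendritic cell genes, 1 was lower (Ciita), of 9 mast cell and eosinophil markers 1 (Kit), and of 19 interferon-stimulated genes 1 (Stat2). Of 8 T cell markers, 2 were higher (Cd3d, Cd3g), at levels of 0.419, 0.870 and 1.87 in the early arm and 0.953, 1.58 and 3.59 in the late arm for Cd3d. Of 10 B cell markers, 8 neutrophil markers and 2 lymph node stroma markers, 0 passed in limma, edgeR or DESeq2. The neutrophil sum was 1940.1 in 18 h replicate 3, with Lcn2 at 1927; the next highest Lcn2 level was 453 in 22 h replicate 2. Of 11 mesothelial markers, 1 was higher (Upk1b), and of 5 red blood cell genes 2 (Hba-a1, Hba-a2). The red blood cell list had a median log2FC of 1.16, and its sum reached 2459.9 in 22 h replicate 1. Once the length and GC trends were taken out, no T cell, mesothelial or red blood cell gene passed in limma, and none passed in edgeR or DESeq2 without that step.

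Mitochondrially encoded genes, which make subunits of the respiratory chain, were higher late in the fast. Their share of all counts was 3.38%, 4.61% and 5.05% in the early arm and 5.10%, 6.01% and 7.003% in the late arm, without overlap (difference of means 1.53 percentage points, exact two-sided permutation p = 0.00216, adjusted p = 0.00433). All 11 genes tested had a log2FC above 0 and 10 were higher in limma with library weights, with a median of 0.58. They are short, with a median of 957 bases. With the length and GC trends taken out, the median was 0.12 in edgeR and 0 of 11 passed in limma (6 of 11 passed in DESeq2 without that step, 0 in edgeR).

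The oxidase subunit gene mt-Co2 lay at 104.6, 111.9 and 128 in the early arm and 138.9, 174 and 249 in the late arm, and the complex I subunit gene mt-Nd6 at 155.3, 189.6 and 245 in the early arm and 261, 321 and 449 in the late arm. In both genes every late library was above every early one. mt-Co2 had a log2FC of 0.69 (SE 0.16, edgeR adjusted p = 0.207; 4.9e-06 to 0.824 over its 19 alternatives), and mt-Nd6 a log2FC of 0.81 (SE 0.18, edgeR adjusted p = 0.207; 0.000553 to 0.925 over its 19 alternatives); without 2 h replicate 1 the edgeR adjusted p was 0.0461 for mt-Nd6, 0.0597 for mt-Co2 and 0.277 for mt-Co1, and 1 of the 11 genes passed. The most abundant member, mt-Co1, lay at 11598, 14765 and 17899 in the early arm and 15922, 21759.6 and 29866 in the late arm, overlapping, and had a log2FC of 0.55 (SE 0.25, edgeR adjusted p = 0.316; 0.00110 to 0.903 over its 19 alternatives).

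Several lists of protein and amino acid turnover had more members higher than lower in limma, as had all genes tested. Over all genes 11.7% were higher and 9.21% lower, or 5.81% and 2.63% with the length and GC trends taken out. DESeq2 passed 1 autophagy and lysosome gene, 0 branched-chain amino acid genes and 1 ATF4 and unfolded protein response gene, all without that step. edgeR passed 0 in each list. Of 19 autophagy and lysosome genes, 6 were higher (Map1lc3b, Bnip3, Bnip3l, Lamp2, Ctsd, Ctsl) and 1 lower (Ulk1) in limma with library weights, with a median log2FC of 0.12; with length and GC trends taken out 5 were higher and 0 lower. Lamp2, a lysosomal membrane protein, lay at 384, 413 and 463 in the early arm and 449, 518 and 601 in the late arm, and the autophagosome protein gene Map1lc3b at 146.05, 175 and 229 in the early arm and 114.6, 218 and 283 in the late arm. Of 15 genes that break down branched-chain amino acids, 5 were higher and 0 lower, with a median of 0.09; without 18 h replicate 3 and 22 h replicate 2, 10 were higher, and with length and GC trends taken out 4. Of 19 ATF4 and unfolded protein response genes, 5 were higher (Chac1, Psat1, Phgdh, Dnajb9, Xbp1) and 0 lower, with a median of 0.34, or 0.17 without that pair of libraries. With the trends taken out, 3 of these were higher, and the limma median went from 0.20 to 0.03. Phgdh, which starts serine synthesis, lay at 71.8, 100.1 and 256 in the early arm and 26.3, 176 and 288 in the late arm, and Xbp1, a factor of the unfolded protein response, at 238, 288 and 352 in the early arm and 195.6, 361 and 532 in the late arm. All of these arms overlapped.

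Of 16 splicing regulators, 3 were lower and 0 higher in limma with library weights; 6 were lower without 18 h replicate 3 and 22 h replicate 2, and 2 with the length and GC trends taken out. Of 16 immediate early genes, 1 was lower (Fosl2), or 2 without those libraries. Of 13 heat shock and chaperone genes, 2 were higher (Hspe1, Hspd1) and 1 lower (Hsph1), and none of them passed with the trends taken out (none in edgeR or DESeq2 without that step). Of 15 cell cycle genes, 1 was lower (Mcm5), which no longer passed in either of those fits.

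Over all genes, the 12 with the smallest p in each direction were taken by rule, leaving out predicted genes, pseudogenes and ribosomal proteins. None of these 24 was called in edgeR, where each had an adjusted p of 0.207. Among the 12 lower genes were Col4a2, Col5a1 and Col6a2, described above. Dll4, the Notch ligand of sprouting endothelium, lay at 13.7, 20.3 and 28.8 in the early arm and 3.39, 7.57 and 10.4 in the late arm, and the oxytocin receptor gene Oxtr at 37.6, 59.2 and 85.3 in the early arm and 8.90, 19.4 and 37.3 in the late arm. Neither overlapped between the arms. Dll4 had a log2FC of -1.47 (SE 0.30, edgeR adjusted p = 0.207; 0.000776 to 0.789 over its 19 alternatives), and Oxtr a log2FC of -1.50 (SE 0.30, edgeR adjusted p = 0.207; 0.000509 to 0.781 over its 19 alternatives). The ephrin receptor gene Ephb2 lay at 8.75, 9.85 and 18.5 in the early arm and 3.99, 5.02 and 5.72 in the late arm, and the actin bundler gene Fscn1 at 15.95, 23.1 and 26.96 in the early arm and 7.35, 8.74 and 16.8 in the late arm. The arms of Ephb2 did not overlap, those of Fscn1 did.

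The log2FC of further lower genes (with its SE and the range of adjusted p over the alternatives) was -1.001 (SE 0.18; 0.000161 to 0.781) for Parvb, a focal adhesion protein, -1.20 (0.22; 0.000419 to 0.781) for Ephb2, -1.15 (0.22; 0.000378 to 0.803) for Fscn1, -2.70 (0.54; 0.000363 to 0.781) for the interferon-inducible GTPase gene Gvin1, -0.77 (0.16; 0.00170 to 0.781) for the lipid flippase gene Atp10a and -0.59 (0.12; 0.00203 to 0.784) for Git2. Parvb lay at 12.97, 18.2 and 23.1 in the early arm and 6.23, 9.66 and 11.4 in the late arm, Gvin1 at 2.15, 4.89 and 9.31 in the early arm and 0.212, 0.514 and 1.79 in the late arm and Atp10a at 15.4, 21.4 and 26.1 in the early arm and 10.3, 12.3 and 15.3 in the late arm. Git2 lay at 33.9, 47.7 and 53.5 in the early arm and 28.5, 30.5 and 33.6 in the late arm. Parvb, Gvin1, Atp10a and Git2 did not overlap between the arms. In limma without the length and GC trends, the log2FC was -0.48 (adjusted p = 0.185; -1.04 with the trends left in) for Ephb2 and -0.29 (adjusted p = 0.0600; -0.62 with the trends left in) for Git2, which no longer passed. Without 2 h replicate 1 all 12 lower genes passed in edgeR, with adjusted p from 0.0461 (Col4a2) to 0.0467 (Oxtr).

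Among the 12 higher genes, 5 that were expressed in every library are given first. Tvp23b, of the Golgi, lay at 39.8, 45.0 and 53.0 in the early arm and 57.2, 80.3 and 120.5 in the late arm, and Creg1, a secreted lysosomal glycoprotein, at 63.2, 74.2 and 87.0 in the early arm and 94.3, 113.9 and 120.7 in the late arm. Neither overlapped between the arms. The prefoldin subunit gene Vbp1 lay at 24.98, 27.97 and 35.0002 in the early arm and 36.4, 44.1 and 48.3 in the late arm and the Toll-like receptor cofactor gene Ly96 at 3.34, 4.21 and 5.11 in the early arm and 6.76, 7.54 and 9.59 in the late arm, also without overlap, and the potassium channel subunit gene Kcns3 at 43.3, 48.3 and 60.99 in the early arm and 51.1, 85.8 and 103.1 in the late arm, with overlap. Their log2FC (with its SE and the range of adjusted p over the alternatives) was 0.85 (SE 0.17; 0.000856 to 0.781) for Tvp23b, 0.54 (0.11; 0.000377 to 0.781) for Creg1, 0.57 (0.12; 0.00133 to 0.896) for Vbp1, 0.88 (0.19; 0.00143 to 0.944) for Ly96 and 0.75 (0.16; 9.0e-06 to 0.781) for Kcns3. In limma without the length and GC trends, the log2FC was 0.03 (adjusted p = 0.896; 0.55 with the trends left in) for Vbp1, 0.23 (adjusted p = 0.358; 0.88 with the trends left in) for Ly96 and 0.31 (adjusted p = 0.196; 0.69 with the trends left in) for Tvp23b, and Creg1 (0.0280) and Kcns3 (0.0249) alone of the 5 still passed. Without 2 h replicate 1 these 5 passed in edgeR, each at an adjusted p of 0.0461.

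A further 6 higher genes were nearly silent in the early arm. Omp lay at 0.179, 0.368 and 1.26 in the early arm and 1.47, 7.07 and 19.97 in the late arm without overlap and had a log2FC of 3.82 (SE 0.69, edgeR adjusted p = 0.207; 4.4e-06 to 0.974 over its 19 alternatives). Among the 12 libraries it passed the count filter through late ones alone. Without 18 h replicate 3 and 22 h replicate 2 its late median was 3.57 and its log2FC 2.97. Bpifb9a lay at 0, 0.0433 and 0.330 in the early arm and 1.12, 1.73 and 5.64 in the late arm, also without overlap. Among the 12 libraries Bpifb9a, too, passed the count filter through late ones alone. Omp, Lcn8, Teddm1a and Gria2 were highest in 18 h replicate 3, at 19.97, 12059.5, 1541 and 35.8, with 22 h replicate 2 next at 10.5, 1704, 368 and 11.4. These are the libraries with the most epididymis RNA. Mup5 reached 9.83 in 22 h replicate 3 and was at or under 0.847 in the other 11.

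The same mice gave subcutaneous fat (psWAT), which shows whether a late shift was shared between depots. Levels here are scaled over all white fat libraries. The difference of late minus early between the depots was tested over 12 pgWAT and 11 psWAT libraries, without psWAT 22 h replicate 2, which had few counts. edgeR called 0 of 18314 genes (0%); 1028 had an unadjusted p under 0.05, DESeq2 called 40 (30 higher in pgWAT, 10 lower) and limma with library weights 13 (3 higher, 10 lower). Of the 30 in DESeq2, 24 had their highest late pgWAT level in 18 h replicate 3 and 3 in 22 h replicate 2, the libraries with the most epididymis RNA, and Gpx5, Lcn8, Lcn9, Cst11 and Spag11b of the epididymis list were among the 30. Of the 10 lower, some had a late psWAT library far above the late psWAT median (582 against 68.9 for Slc12a2). Others did not (5.86 against 4.88 for Srgap1). With the animal as a block, edgeR called 1 gene, Ahsg, a protein secreted by liver, which lay at 0, 1.07 and 3.52 in early and 0.603, 2.01 and 411 in late pgWAT, against 0, 0.103 and 0.804 in early and 0, 0 and 0.165 in late psWAT (adjusted p = 0.00588 with the block, 0.770 without). The level of 411 was that of 18 h replicate 2, the library with the most liver RNA. For psWAT alone, edgeR and limma with library weights called 0 genes late against early (823 and 2187 at unadjusted p under 0.05).

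Of the 13 genes that limma called, Tie1, Col5a1 and Tanc1 also appear elsewhere in these results; they are named here after their values were seen. Tie1 lay at 40.4, 71.5 and 100.3 in early and 16.03, 19.8 and 58.7 in late pgWAT, against 21.6, 30.7 and 35.6 in early and 19.6, 28.1 and 49.5 in late psWAT (limma log2FC of the difference -1.99, adjusted p = 0.0471; edgeR adjusted p = 0.758). Col5a1 lay at 94.6, 144.1 and 146.5 in early and 35.004, 67.4 and 79.8 in late pgWAT, against 17.2, 21.4 and 56.6 in early and 10.9, 23.2 and 65.5 in late psWAT (limma -1.61, adjusted p = 0.0471; edgeR adjusted p = 0.770). The edgeR log2FC in psWAT alone was 0.04 for Tie1 and 0.17 for Col5a1. List medians also differed between the depots: collagen and matrix genes had a median log2FC of -0.56 in pgWAT and 0.28 in psWAT, endothelial markers -0.81 and 0.18, and mitochondrially encoded genes 0.58 and -0.57. Fatty acid synthesis genes had a median below 0 in both depots, -0.69 and -0.59. These differences between list medians were not tested, and lane cannot be told apart from them.

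By rule, the 6 genes with the smallest p in each direction of the depot difference are named. Their edgeR adjusted p ran from 0.642 (Ascl4) to 0.758 (Plk2), so edgeR called none. DESeq2 called all of them except F9, and limma with library weights called Tanc1 alone among them. Those with the larger late shift in pgWAT were Ascl4, Ly6g5b, Bcl2l15, Ptpn5, F9 and Rab26. Ly6g5b lay at 0.182, 0.385 and 0.601 in early and 0, 6.84 and 743 in late pgWAT, against 0.788, 2.94 and 3.27 in early and 0, 2.07 and 2.73 in late psWAT, and Ascl4 at 0.389, 0.530 and 0.727 in early and 1.0004, 1.53 and 19.6 in late pgWAT, against 0.591, 1.17 and 2.72 in early and 0, 0.439 and 0.758 in late psWAT. Late pgWAT values of Ascl4, Ly6g5b, Bcl2l15, Ptpn5 and Rab26 were highest in 18 h replicate 3, and those of the clotting factor gene F9 in 18 h replicate 2, the library with the most liver RNA. Those with a difference below 0 were Trim29, Ache, Clic6, Urb1, Tanc1 and Plk2. The edgeR log2FC in psWAT alone was 5.34 for Trim29, 6.27 for Clic6 and 1.86 for Plk2, against -0.17 for Ache, 0.44 for Urb1 and 0.30 for Tanc1. The highest late psWAT library lay at 12.6 for Trim29 (late psWAT median 0.255), 29.9 for Clic6 (2.81) and 87.2 for Plk2 (14.3). Keratinocyte markers had a median log2FC of 5.22 in psWAT, and a part of other tissue in these genes was not tested. Urb1, of ribosome assembly, lay at 17.7, 25.2 and 39.1 in early and 10.8, 14.6 and 16.7 in late pgWAT, against 28.7, 32.0 and 34.8 in early and 25.8, 40.9 and 76.02 in late psWAT, and the scaffold protein gene Tanc1 at 34.2, 48.7 and 68.0 in early and 21.1, 27.7 and 36.9 in late pgWAT, against 20.2, 25.1 and 33.1 in early and 27.5, 32.0 and 37.8 in late psWAT. Their pgWAT arms did not overlap for Urb1 and overlapped for Tanc1.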

How the data were processed

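The authors sequenced stranded poly(A) mRNA, aligned reads with TopHat2 2.1.1 to GRCm38.p5 and counted them per gene with HTSeq 0.9.1 on Gencode M16; the deposited table holds raw counts of 53686 genes in 162 libraries. Genes were kept at a CPM equal to 10 counts in the median pgWAT library in at least 3 of 18 libraries. Arms were compared with edgeR 4.0.16 (TMM, robust quasi-likelihood; SE from the F statistic), DESeq2 1.42.0 and limma 3.58.1 in R 4.3.3, with Benjamini-Hochberg adjustment; Python 3.11.15, pandas and matplotlib made tables and figures. Gene length and GC content came from Gencode M21, and trends with them were splines with 4 degrees of freedom. Library measures had exact permutation tests. Alternatives changed the tool, scaling, filter, dispersion, weights, libraries, times, lane, block or length trend. psWAT 22 h replicate 2 was left out for its low total.

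The rule for named genes, written before the files were read, was list members called or past adjusted p and up to 4 further abundant ones, the 12 genes of smallest p in each direction, 6 in each direction of the depot difference, and Lep and Adipoq. Since edgeR called none, the list members given with values are a selection, made after values were seen, of those past adjusted p in limma with library weights, with arms that did not overlap, or abundant. Some genes that the rule names are not reported here. Members and lists were chosen with earlier results of these data known. Both depots came from the same mouse, per the labels; deviations of paired libraries from their group means correlated at -0.0929 to 0.210 (mean 0.0758, 11 pairs).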

Additional observations from a re-analysis of the deposited data

Results flagged for a closer look

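17 of 96 arms checked had 1 library far from the rest, its gap to the nearest library divided by the arm's range being over Dixon's critical value for 6. That value is passed in about 1 of 20 arms of normally distributed values. Levels and sums were used here without a log and are skewed, so 17 of 96 cannot be read against that rate. 2 h replicate 1 stood out in the early arm for the slope of level on gene length (gap share 0.697), the summed liver markers (0.766), Adipoq (0.684), Col4a1 (0.675) and Col4a2 (0.659). It is the only early library from lane 7, and the part of the lane in these values was not tested. 0 h replicate 3 was the highest early library for Fasn (0.808), Acly (0.827), Pnpla3 (0.653), Gpd1 (0.858) and Ephb2 (0.745).

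2 h replicate 2 stood out in the early arm for summed epididymis markers (0.989) and smooth muscle markers (0.941), and 22 h replicate 2 in the late arm for smooth muscle markers (0.959). 18 h replicate 2 stood out for summed liver markers (0.928) and Tie1 (0.675). 18 h replicate 3 was the lowest late library for Col6a2 (0.650) and Col6a3 (0.629).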

How the results depend on the processing

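edgeR called 0 genes under RLE or upper-quartile factors, without robust estimation, without the filter or with one of 50 counts, with 18 h or 22 h alone, against 0 h alone, with length offsets, and with lane over 18 libraries. The lane term lowered the number of genes with an unadjusted p under 0.05. Over all 18 libraries, 3315 of 16412 genes had such a p without the term and 938 with it. Lane and arm cannot be told apart within the 12 libraries, and the cause of this fall was not tested. The tools disagreed. DESeq2 called 182 genes (1.13% of those tested; 409 genes past adjusted p alone), limma with library weights 493 (3.00%; 3424), and edgeR over all 18 libraries 1 (0.00609%; 1), which was lower. The following were chosen after seeing the data: with length and GC offsets edgeR called 0, without 18 h replicate 3 and 22 h replicate 2, limma called 552 (3.36%; 3787) and DESeq2 197 (1.22%; 890), and with length and GC trends taken out limma called 179 (1.09%; 1386). Leaving out 1 library gave calls in 0% to 0.664% of genes (0 to 373 genes past adjusted p), all of them without 2 h replicate 1. The cause was not tested. The depot difference gave 40 calls in DESeq2 and 13 in limma with library weights, the latter chosen after seeing the data.

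With the replicate number as a block edgeR called 0 genes. Each time point used different mice, so the numbers do not pair the mice. Libraries with the same number correlated in their deviations at -0.372 to 0.701 over 18 pairs of pgWAT time points. For the depot difference the animal block gave 1 call; a block changed no other count of calls.

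The share of the 10 most abundant genes differed by 3.06 percentage points without 18 h replicate 3 and 22 h replicate 2 (1.18 to 2.46 leaving out 1 library), and the length slope by -0.167 to -0.0926. Over the 37 genes given with a log2FC and their alternatives, 975 of 1146 values kept direction and side of the threshold, and the others passed it in the same direction. The totals of the late arm, under those of the early arm, limit the precision of genes with few counts.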

Other observations

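Medians of the 3 libraries at 8 h and the 3 at 12 h, which are not part of the comparison, are set beside the arm medians. Median Fasn levels were 1554 normalized CPM at 8 h and 1101 at 12 h, beside 2248 in the early and 708 in the late arm. Pnpla3 medians were 860.3 and 697, beside 977 and 255. For Acly they were 244 and 200.4, beside 388 and 168.7. Col4a2 had medians of 394 at 8 h and 303 at 12 h, beside 399 and 177, and mt-Co2 had 138.1 and 152.3, beside 111.9 and 174.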
